A study of Homo sapiens with 6 samples.

Results

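The genes described here are 10 survival and adhesion effectors of NF-kB, chosen by symbol from the 62710 genes of the deposited count table: BIRC2, BIRC3, TRAF1, TRAF2, CFLAR, BCL2A1, BCL2L1, IER3, ICAM1 and PTGS2. They were measured by poly(A)-selected RNA-seq in 6 libraries of A549, an established human lung adenocarcinoma line. The 3 control libraries received no treatment, and the 3 PS-MP libraries came from cells given polystyrene microplastics (PS MPs) for 48 h. The labels state 20 mg/mL, and the sources used here hold nothing to check the unit of that dose against. Both groups were grown in the same serum-containing medium, and the labels name no other agent or genetic change. The labels do not tie the replicates to separate cultures, and p-values therefore cover only the spread among these 6 libraries, which may be technical. Values per library are given in the order of replicates 1, 2 and 3, and control 1 stands for control replicate 1, and so on.

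NF-kB is a family of dimeric transcription factors held in the cytoplasm by inhibitors and released when receptors of the TNF, Toll-like and interleukin-1 families signal. Its survival targets act at several levels: the cIAP ubiquitin ligases and TRAF adaptors at the receptor, the caspase-8 regulator c-FLIP, and BCL2-family proteins at the mitochondrion. In lung epithelium its targets also include the leukocyte adhesion molecule ICAM1 and the prostaglandin synthase PTGS2 (COX-2).

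Library totals ran from 17013293 to 21316451 counts, and 3 counts corresponded to 0.137 to 0.177 TMM-normalised CPM, a floor that covers counting error only. In each group replicate 3 was the least like the rest. Its correlation of log2 CPM with its own group was 0.989 to 0.990 in untreated cells and 0.986 to 0.989 in PS-MP, against 0.997 and 0.995 between replicates 1 and 2. The share of counts on mitochondrial genes was 12.4% in control 3 and 15.6% to 17.8% elsewhere. Values without both replicate 3 libraries are given where a call of a named gene changed. The label A549 was checked against epithelial genes: KRT8 and KRT18, the simple-epithelial keratins, had 3502 and 2540 CPM in the controls, while EPCAM had only 2.47 CPM. Of 10 leukocyte markers, CD3E and MS4A1 were at 0 in all libraries and the pan-leukocyte gene PTPRC had at most 2 counts in any library. The summed level of the leukocyte markers was 23.5 to 29.03 CPM in untreated cells and 27.7 to 42.0 CPM in PS-MP, nearly all of it CD14. None of the 5 endothelial markers reached the level needed for testing. The 6 fibroblast markers summed to 6.83 to 9.05 CPM in untreated cells and 10.1 to 14.2 CPM in PS-MP. Of these, COL1A2 was at 0 throughout and only DCN, a matrix proteoglycan, passed the test (adjusted p = 0.0245). Leaving out a single control, or PS-MP 1, ended the DCN call (edgeR adjusted p between 0.0518 and 0.0784). So did adding the replicate number to the model as a block. What part these marker genes had in the results was not tested.

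Promoter sequences are shown first because NF-kB binds DNA directly. RefSeq promoters (GRCh38.p14) were given for 9 of the 10 genes, 16 starts in all, and the 250 bases before each start were searched on both strands. One search was for the kappaB consensus, written GGGRNWYYCC (R is A or G, W is A or T, Y is C or T, N is any base). The other was for the shorter motif GGNNNTTCC, whose matches can lie inside a consensus match. The consensus was in 5.21% and the shorter motif in 17.1% of all 35116 promoters of that length. Of the 16 promoters of these genes, 2 held the consensus (12.5%), 1 each of BIRC3 and CFLAR, and 3 held the shorter motif (18.75%), 1 each of BIRC3, CFLAR and ICAM1. Capitals mark the bases where either motif matched. The stretches printed are cut to bases outside the gene as deposited or, for PTGS2, outside its annotated exons. They show 3 genes that rose (ICAM1, BCL2A1, PTGS2) and BIRC3, which did not pass.
ICAM1, chr19:10270870-10271092, plus strand: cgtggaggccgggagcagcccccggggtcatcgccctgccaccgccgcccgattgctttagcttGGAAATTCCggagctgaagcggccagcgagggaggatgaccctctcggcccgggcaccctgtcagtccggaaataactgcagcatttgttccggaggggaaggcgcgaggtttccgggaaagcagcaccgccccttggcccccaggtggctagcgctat
BCL2A1, chr15:79971197-79971446, minus strand: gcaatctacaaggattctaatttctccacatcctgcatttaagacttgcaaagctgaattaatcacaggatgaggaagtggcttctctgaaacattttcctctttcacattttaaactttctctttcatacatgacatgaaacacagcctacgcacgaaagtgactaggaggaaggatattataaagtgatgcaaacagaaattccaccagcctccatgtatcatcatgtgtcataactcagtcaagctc
PTGS2, chr1:186680428-186680673, minus strand: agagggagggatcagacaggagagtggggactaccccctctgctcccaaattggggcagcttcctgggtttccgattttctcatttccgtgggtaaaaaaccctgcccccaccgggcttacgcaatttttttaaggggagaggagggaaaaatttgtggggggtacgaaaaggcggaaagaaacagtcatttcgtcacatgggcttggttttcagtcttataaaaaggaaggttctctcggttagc
BIRC3, chr11:102317234-102317449, plus strand: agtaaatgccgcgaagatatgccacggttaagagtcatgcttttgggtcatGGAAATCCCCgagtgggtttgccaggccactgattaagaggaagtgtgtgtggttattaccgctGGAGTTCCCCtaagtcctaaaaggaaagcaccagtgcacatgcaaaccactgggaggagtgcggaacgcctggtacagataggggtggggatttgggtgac
For CFLAR, whose matching start lies inside the deposited gene, 30 bases around the match are shown.
CFLAR, chr2:201118609-201118638, plus strand: cgcggggggcGGGGAATTCCgcagacagga
The ICAM1 stretch matched the shorter motif on both strands, 178 to 186 bases before the start. BIRC3 held 2 consensus matches, 190 to 199 and 126 to 135 bases before its start. The printed BCL2A1 and PTGS2 stretches held neither motif, which says only that these letters are not in those windows. Near matches were not marked. The PTGS2 stretch holds gggactaccc, with A where the consensus has C or T, and whether NF-kB binds there was not tested. BIRC2, TRAF1, TRAF2 and BCL2L1 held neither motif in any window searched.

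PS-MP exposure went with higher ICAM1, BCL2A1 and PTGS2, while the ubiquitin ligase and adaptor genes BIRC2, BIRC3, TRAF1 and TRAF2 did not pass the test. All 10 genes had enough counts to be tested, and their positions are those of the deposited table (GRCh38). With edgeR's quasi-likelihood test, adjusted by Benjamini-Hochberg over 15458 genes, 3 of 10 rose and 0 fell. At an unadjusted p under 0.05, 5 of 10 were higher and 0 lower, against 24% of all tested genes (12.6% higher and 11.4% lower). DESeq2 and limma-voom also called 3 higher and 0 lower. Of all tested genes 9.56% were called, 4.91% as higher and 4.65% as lower. These were 759 higher and 719 lower genes, and scaling by library totals alone gave 535 and 861. For 5 of the 10 genes the groups did not overlap, always with PS-MP above control, against 32% of all tested genes (16.6% with PS-MP above control). Without both replicate 3 libraries 4 of the 10 were called higher, where 13.5% of tested genes were. The median log2 fold change was 0.22 over the 10 genes and 0.002 over all tested genes. In bulk RNA, more cells expressing a gene and more RNA per cell cannot be told apart.

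**Figure D1:**
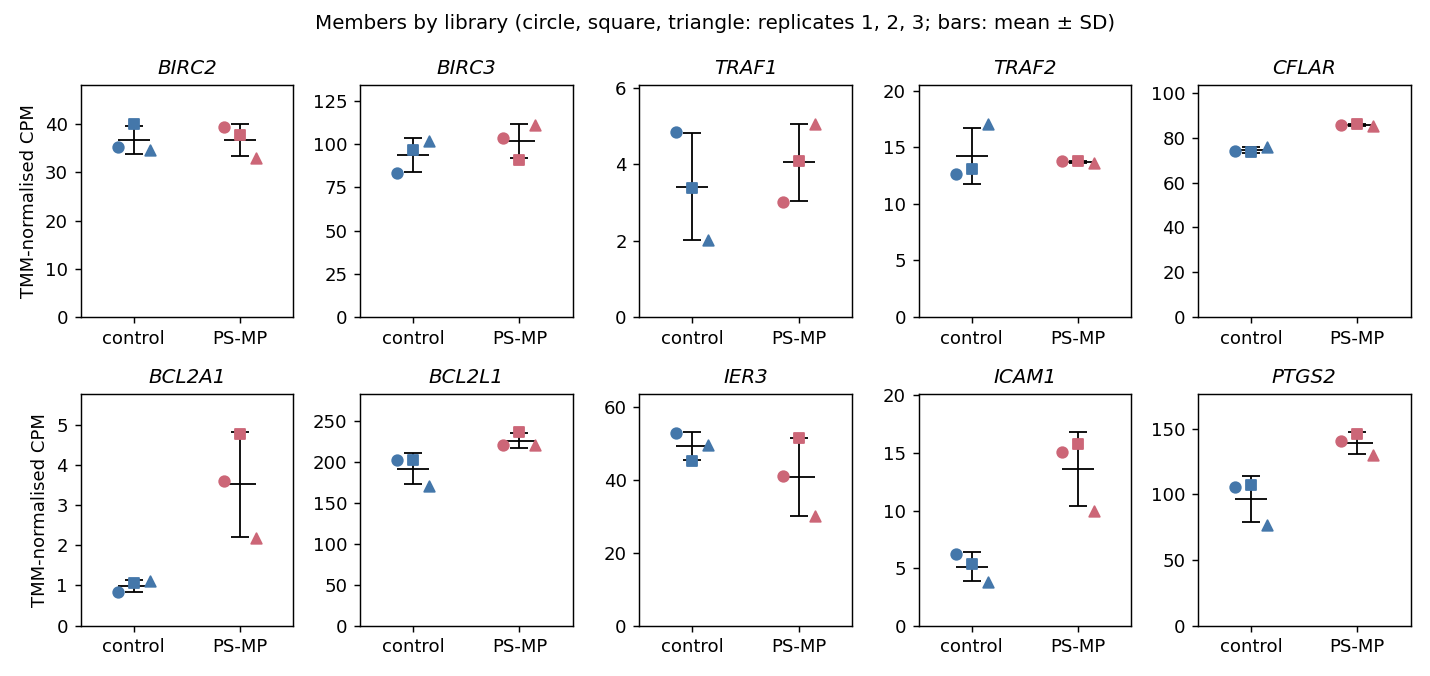
TMM-normalised CPM of the 10 genes in each library (circles, squares and triangles are replicates 1, 2 and 3; black bars are mean ± SD, n = 3). ICAM1, BCL2A1, PTGS2, CFLAR and BCL2L1 lay above every control in every PS-MP library.

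The adhesion and prostaglandin genes both rose. ICAM1 (ENSG00000090339, chromosome 19, 10271093 to 10286615) encodes the cell-surface ligand for leukocyte beta-2 integrins. Its levels were 6.24, 5.39 and 3.76 CPM in untreated cells and 15.1, 15.7 and 9.92 CPM with PS-MP. The PS-MP libraries were all above the controls, and replicate 3 was the lowest library of each group. The mean rose from 5.13 ± 1.26 to 13.6 ± 3.20 CPM (SD, n = 3), a 2.66-fold change (log2 fold change 1.41 ± 0.23 SE, edgeR adjusted p = 0.0032). The 95% interval of the fold was 1.87 to 3.78. The call held in all 15 alternatives, with log2 fold changes from 1.22 to 1.60. ICAM1 overlaps ICAM4-AS1, an antisense RNA with at most 2 counts in any library.

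PTGS2 (ENSG00000073756, chromosome 1, 186671791 to 186680922) makes the prostaglandin precursor from arachidonic acid and is the inducible form of its family. It had 105.9, 106.9 and 76.5 CPM in untreated cells and 140.7, 146.2 and 129.8 CPM with PS-MP. The groups did not overlap, and replicate 3 was the lowest library of each group. The mean rose 1.44-fold, from 96.4 ± 17.3 to 138.9 ± 8.36 CPM (log2 fold change 0.53 ± 0.13 SE, edgeR adjusted p = 0.0313), with a 95% interval of 1.18 to 1.77. The call did not hold in every leave-one-out fit: leaving out control 1, PS-MP 1 or PS-MP 2 gave edgeR adjusted p = 0.0505, 0.115 and 0.116. The overlapping antisense RNA PACERR had 1 to 35 counts, against 1670 to 2609 for PTGS2. PTGS2 made up 99.0 ± 0.42% of the per-length level of the PTGS1 and PTGS2 pair in controls and 99.5 ± 0.20% in PS-MP (n = 3).

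Of the genes acting on caspases and mitochondria, BCL2A1 rose and the others did not pass. BCL2A1 (ENSG00000140379, chromosome 15, 79960892 to 79971196) encodes a short-lived anti-apoptotic BCL2-family protein that binds pro-apoptotic relatives. It was scarce, with 14, 23 and 24 counts in untreated cells and 62, 85 and 41 counts with PS-MP. In CPM these were 0.824, 1.05 and 1.10 against 3.59, 4.76 and 2.17. The groups did not overlap, and PS-MP 3 was the lowest exposed library. The change was 3.49-fold (0.992 ± 0.147 against 3.51 ± 1.30 CPM, log2 fold change 1.80 ± 0.32 SE, edgeR adjusted p = 0.00555), with a 95% interval of 2.13 to 5.72. The call held in all 15 alternatives, with log2 fold changes from 1.51 to 2.13.

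BCL2L1 (ENSG00000171552, chromosome 20, 31664452 to 31723989), which encodes BCL-XL, had the highest level of the 10, in CPM and per kilobase of exon. Its levels were 201.9, 202.5 and 170.4 CPM in untreated cells and 220.1, 235.7 and 220.7 CPM with PS-MP. The PS-MP libraries all lay above the controls, but the gene did not pass (1.18-fold, 95% interval 1.01 to 1.38, edgeR adjusted p = 0.194). CFLAR (ENSG00000003402, chromosome 2, 201116154 to 201176687), which encodes c-FLIP, had 74.0, 73.6 and 75.9 CPM in untreated cells and 85.7, 86.3 and 85.2 CPM with PS-MP. Each group was tight and the groups did not overlap, yet the difference did not pass (log2 fold change 0.20, 95% interval of the fold 1.00 to 1.32, edgeR adjusted p = 0.197). CFLAR passed only when both replicate 3 libraries were left out (log2 fold change 0.22, adjusted p = 0.0304), where 26.6% of 15503 tested genes were called. CFLAR-AS1 on the other strand had 4 to 14 counts.

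IER3 (ENSG00000137331, chromosome 6, 30743199 to 30744548), an early-response gene that modulates survival after stress in several cell types, had the most negative fold change of the 10. It had 52.7, 45.2 and 49.6 CPM in untreated cells and 41.1, 51.3 and 30.02 CPM with PS-MP. PS-MP 2 lay within the control range and PS-MP 3 was the lowest of all 6. The test was not passed (log2 fold change −0.27 ± 0.17 SE, edgeR adjusted p = 0.369), and the 95% interval of the fold was 0.642 to 1.08. Without both replicate 3 libraries the log2 fold change was −0.08.

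The 5 anti-apoptotic BCL2-family genes were also compared within a library by level per kilobase of exon (union of GENCODE release 29 exons), as a description without a test. MCL1 and BCL2L1 held 54.8 ± 5.86% and 40.3 ± 6.08% of the summed level in controls, and 54.1 ± 1.95% and 40.2 ± 2.05% in PS-MP. The share of BCL2A1 was 0.630 ± 0.0752% in controls and 1.88 ± 0.608% in PS-MP, with 1.26% to 2.48% over the PS-MP libraries. The share of BCL2A1 was thus small in both groups, and every PS-MP library lay above every control. These shares were chosen after the values had been seen.

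**Figure D2:**
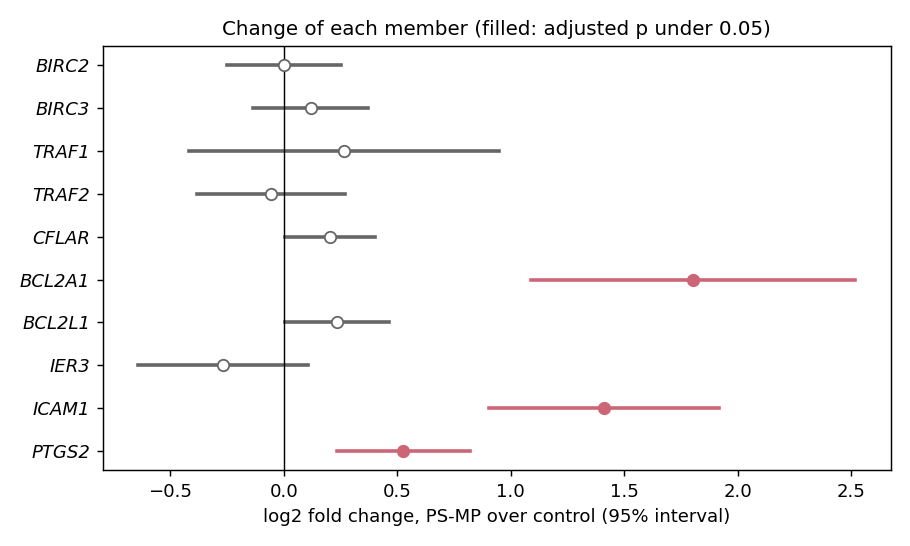
Log2 fold change of PS-MP over control with its 95% interval for the 10 genes (filled points passed an adjusted p of 0.05). Points run from −0.27 for IER3 to 1.80 for BCL2A1, and the intervals of BIRC2, BIRC3, TRAF1, TRAF2 and IER3 hold 0.

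At the receptor level 0 of 4 genes passed by edgeR, DESeq2 or limma-voom, and 0 had an unadjusted p under 0.05. The shares over all tested genes were 9.56% called by edgeR and 24% at that unadjusted p. BIRC2 and BIRC3 encode the cIAP1 and cIAP2 ubiquitin ligases, which sit with TRAF2 on the TNF receptor, and they are neighbours on chromosome 11, 7807 bases apart on the same strand. BIRC3 (ENSG00000023445, chromosome 11, 102317450 to 102339403) had 83.1, 96.4 and 101.8 CPM in untreated cells and 103.5, 91.0 and 111.0 CPM with PS-MP. The groups overlapped (1.09-fold, 95% interval 0.911 to 1.29, edgeR adjusted p = 0.570). BIRC2 (ENSG00000110330, chromosome 11, 102347211 to 102378670) had 35.3, 40.1 and 34.7 CPM in untreated cells and 39.5, 37.8 and 33.0 CPM with PS-MP. Here too the groups overlapped (1.00-fold, 95% interval 0.841 to 1.19, edgeR adjusted p = 0.996), and scaling by total counts alone turned its sign (log2 fold change −0.06). The 2 genes are paralogs, and how reads that map to both were counted is not given in the sources used here.

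TRAF2 (ENSG00000127191, chromosome 9, 136881912 to 136926607), the adaptor that brings the cIAPs to the receptor, had 12.6, 13.1 and 17.1 CPM in untreated cells and 13.8, 13.8 and 13.6 CPM with PS-MP. Control 3 was high, the PS-MP libraries had a coefficient of variation of 0.638%, and the groups overlapped (fold 0.962, 95% interval 0.767 to 1.21, edgeR adjusted p = 0.857). Without control 3 the log2 fold change turned from −0.06 to 0.09. TRAF1 (ENSG00000056558, chromosome 9, 120902393 to 120929173), its relative that pairs with it, was low at 4.83, 3.38 and 2.02 CPM in untreated cells and 3.01, 4.09 and 5.04 CPM with PS-MP. Control 3 was the lowest and PS-MP 3 the highest library, and the groups overlapped because controls 1 and 2 lay above PS-MP 1 (log2 fold change 0.27, 95% interval −0.42 to 0.95, edgeR adjusted p = 0.649). Without control 3 the log2 fold change was −0.01, and without both replicate 3 libraries −0.19.

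Ratios within a library do not depend on scaling. BIRC3 to BIRC2 was 2.36, 2.40 and 2.93 in untreated cells and 2.62, 2.41 and 3.36 with PS-MP. The difference of mean log2 ratios was 0.12, within the spread (two-sided exact permutation p = 0.5, adjusted over 2 ratios 0.7). TRAF1 to TRAF2 was 0.385, 0.260 and 0.119 in untreated cells and 0.2201, 0.298 and 0.371 with PS-MP (difference 0.34 on the log2 scale, two-sided exact permutation p = 0.7, adjusted 0.7). With 3 against 3 the smallest possible p is 0.1, so neither ratio could have passed 0.05.

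By level per kilobase of exon in the controls the order was BCL2L1 (57.8 ± 5.53 CPM per kb), IER3 (36.2 ± 2.79), PTGS2 (18.3 ± 3.27), BIRC3 (12.5 ± 1.27), BIRC2 (8.10 ± 0.651), TRAF2 (3.89 ± 0.673), CFLAR (3.31 ± 0.0553), ICAM1 (1.38 ± 0.341), BCL2A1 (0.911 ± 0.135) and TRAF1 (0.529 ± 0.218). TRAF2 and CFLAR differed by less than the SD of TRAF2. In PS-MP the means of CFLAR (3.81), TRAF2 (3.75), ICAM1 (3.67) and BCL2A1 (3.22 CPM per kb) lay close together. The ranges of ICAM1 and BCL2A1 overlapped each other and those of CFLAR and TRAF2. IER3 (30.1 ± 7.86) and PTGS2 (26.4 ± 1.59 CPM per kb) overlapped there as well, having been apart in the controls. The union of CFLAR exons is 22529 bases, longer than a transcript that uses only part of them, which lowers its per-length level.

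**Figure D3:**
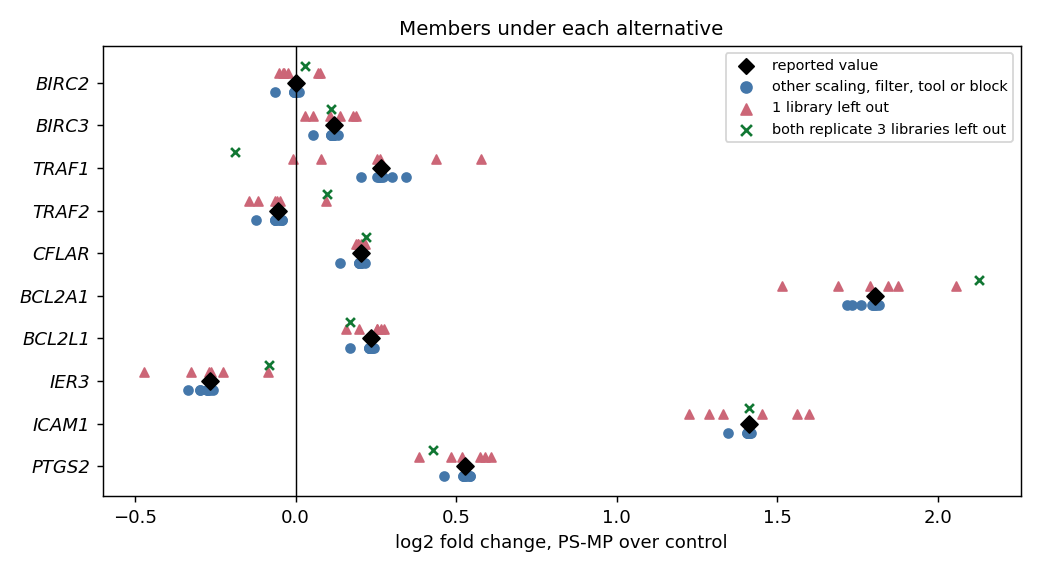
Log2 fold change of each gene as reported (diamonds), under other scalings, filters, tools or the replicate block (circles), with 1 library left out (triangles) and with both replicate 3 libraries left out (crosses). ICAM1 stayed between 1.22 and 1.60 and BCL2A1 between 1.51 and 2.13, while BIRC2, TRAF1 and TRAF2 crossed 0.

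The genes around these effectors in the pathway are given as counts beside the 9.56% called over all tested genes. Of 21 TNF receptor, TRAF and ubiquitin ligase genes, 1 rose and 0 fell (median log2 fold change 0.13). The riser was RBCK1, a subunit of the linear ubiquitin ligase (90.1 ± 3.63 against 136.1 ± 33.2 CPM, 1.51-fold, edgeR adjusted p = 0.0412). The call did not survive leaving out a single library other than PS-MP 3 (adjusted p between 0.0950 and 0.170), nor total-count scaling, limma-voom or the replicate block. The receptors TNFRSF1A (359 ± 25.6 against 344 ± 14.0 CPM) and LTBR (156.0 ± 5.27 against 175.8 ± 10.5 CPM) did not pass (edgeR adjusted p = 0.755 and 0.298). Without both replicate 3 libraries, where 26.6% of tested genes were called, LTBR was called higher (log2 fold change 0.20, adjusted p = 0.0364).

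Of 15 NF-kB subunit, kinase and inhibitor genes, 3 rose and 0 fell (median 0.15). TNFAIP3, the deubiquitinase A20 that restrains the pathway, rose 2.26-fold (21.5 ± 1.01 against 48.6 ± 2.33 CPM, edgeR adjusted p = 0.000107). TNIP1, an A20-binding protein, rose 1.45-fold (adjusted p = 0.00469), and RELB, a subunit of the non-canonical branch, rose 1.52-fold (adjusted p = 0.0272). Leaving out replicate 1 or 2 of either group ended the RELB call (adjusted p between 0.0754 and 0.120), and so did the replicate block. NFKBIA and NFKB2 did not pass (log2 fold changes 0.05 and 0.15), nor did RELA and NFKB1 (log2 fold changes 0.10 and 0.15, edgeR adjusted p = 0.6004 and 0.462). Without both replicate 3 libraries NFKB2 was called higher (log2 fold change 0.26, adjusted p = 0.0267), and the log2 fold change of NFKBIA was −0.01.

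Of other NF-kB targets, 15 of 19 tested genes rose and 0 fell, with a median log2 fold change of 1.13. The cytokine IL6 rose 8.67-fold, the mitochondrial superoxide dismutase SOD2 rose 3.38-fold and the chemokine CXCL1 rose 2.37-fold (edgeR adjusted p = 7.01e-05, 7.01e-05 and 9.85e-05). SAT1 and LIF did not pass (log2 fold changes 0.18 and 0.12), and LIF was called higher without both replicate 3 libraries (0.34, edgeR adjusted p = 0.0167). The list was assembled with earlier results of these data known, so its count is a description, and the difference between it and the 10 effectors was not tested.

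Of 3 tested anti-apoptotic relatives of BCL2L1 and BCL2A1, 0 passed by edgeR, DESeq2 or limma-voom, and 0 had an unadjusted p under 0.05, against 24% of all tested genes. MCL1 (347 ± 59.4 against 401 ± 34.3 CPM) and BCL2L2 (25.2 ± 3.07 against 26.6 ± 0.955 CPM) had edgeR adjusted p = 0.368 and 0.750. MCL1 was called higher without both replicate 3 libraries (log2 fold change 0.42, adjusted p = 0.000764). Of 11 pro-apoptotic relatives 4 rose: BBC3 and PMAIP1, the BH3-only proteins PUMA and NOXA, and the pore formers BAX and BAK1. Their folds were 1.78, 1.47, 1.45 and 1.41 (edgeR adjusted p = 0.00838, 0.0131, 0.0203 and 0.0439). BAK1 was named after its value was seen. The BBC3 call held whichever library was left out. That of PMAIP1 ended when control 2, PS-MP 1 or PS-MP 2 was left out (adjusted p between 0.0581 and 0.0667). Those of BAX (0.0845 to 0.0959) and BAK1 (0.148 to 0.170) ended without each of these libraries and without control 1. Scaling by library totals alone and limma-voom also ended the BAK1 call, and the replicate block ended those of PMAIP1, BAX and BAK1. BID and BAD did not pass (log2 fold changes 0.20 and 0.08), and BID was called higher without both replicate 3 libraries (0.32, edgeR adjusted p = 0.0125).

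Of 11 death receptor and caspase genes, 2 rose. These were the receptors FAS (1.72-fold, edgeR adjusted p = 0.0028) and TNFRSF10B (1.40-fold, adjusted p = 0.0119), which bind the ligands FASL and TRAIL. Leaving out replicate 1 of either group ended the TNFRSF10B call (adjusted p between 0.0695 and 0.0855), and so did the replicate block. CASP8, the protease that c-FLIP restrains, stood at 45.5 ± 1.98 and 48.9 ± 5.39 CPM (adjusted p = 0.618), and TNFRSF10A did not pass (log2 fold change 0.40). Without both replicate 3 libraries CASP8 (log2 fold change 0.23, edgeR adjusted p = 0.0413) and TNFRSF10A (0.63, adjusted p = 0.000271) were called higher. TNFRSF10A was also called without control 3 alone (adjusted p = 0.0219). FAS, BBC3 and BAX are also on a list of 17 p53 targets, likewise assembled with earlier results known, of which all 16 tested rose (median 1.10). Those with the smallest adjusted p were CDKN1A (4.32-fold), MDM2 (2.42-fold) and SESN1 (2.38-fold).

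In the IAP family, which shares the BIR domain of BIRC2 and BIRC3, 1 of 3 other tested genes changed. BIRC5, which encodes survivin and acts mainly in mitosis, fell to 14.6 ± 5.96 from 94.3 ± 34.1 CPM, 6.48-fold lower (edgeR adjusted p = 0.000397). With no filter on low counts its adjusted p was 0.0807. XIAP and BIRC6 did not pass (log2 fold changes 0.06 and −0.07).

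Around ICAM1, 2 of 14 tested adhesion genes rose, CEACAM1 (1.72-fold, edgeR adjusted p = 0.0101) and L1CAM (1.70-fold, adjusted p = 0.0407), and 0 fell. The CEACAM1 call ended without replicate 1 of either group (adjusted p between 0.0575 and 0.0595). That of L1CAM ended whichever library was left out (0.0582 to 0.154) and with scaling by library totals alone. The replicate block ended both calls. The hyaluronan receptor CD44 (582 ± 69.9 against 590 ± 152.8 CPM) and ALCAM (253 ± 20.3 against 258 ± 30.05 CPM) did not pass. Without both replicate 3 libraries the log2 fold change of CD44 turned from 0.02 to −0.31 and was called lower (edgeR adjusted p = 0.00762). The relatives ICAM2, ICAM3 and ICAM4 were too low to test. ICAM5, named after its value was seen, was tested and did not pass (log2 fold change −0.62, edgeR adjusted p = 0.277). Around PTGS2, 0 of 11 tested prostaglandin genes passed by edgeR, 2 had an unadjusted p under 0.05 (24% of all tested genes did), and DESeq2 called 1 lower, PTGES3. The prostaglandin reductase AKR1C3 (2958 ± 468 against 3121 ± 307 CPM) and the synthase PTGES3 (475 ± 101.1 against 352 ± 27.2 CPM) had edgeR adjusted p = 0.781 and 0.0914.

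**Figure D4:**
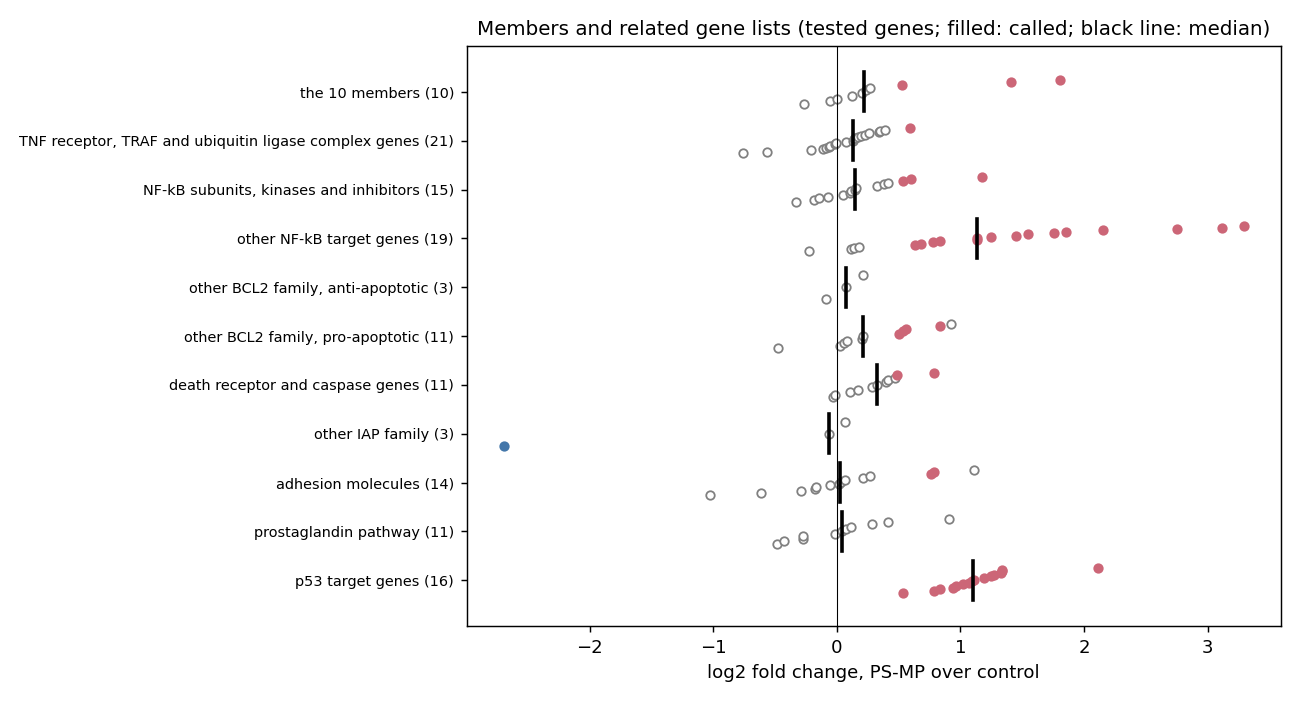
Log2 fold change of every tested gene in the 10 effectors and in each related list (number tested in parentheses), with the list median as a black line. Filled red points passed as higher and the filled blue point, BIRC5, as lower, and the medians run from −0.07 for other IAP genes to 1.13 for other NF-kB targets.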

How the data were processed

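The deposited values were whole-number counts per Ensembl gene for 6 libraries, which the authors made from stranded poly(A)-selected paired-end reads, per the labels' protocols. Per the submitters' processing notes, fastp, HISAT2, StringTie, RSEM and DESeq2 were used with GRCh38, and the table's name carries featureCounts. The strand setting, multi-mapping rule and annotation release are not given in the sources used here. Counts were tested in R 4.3.3 with edgeR 4.0.16: filterByExpr (15458 genes kept), TMM, robust quasi-likelihood F test, two-sided, Benjamini-Hochberg at 0.05. The SE is the log2 fold change divided by the square root of F. CPM are TMM-normalised, and exon lengths came from GENCODE release 29. Ratios used 0.5 counts as a pseudocount. The closest libraries, control replicates 1 and 2, had a chi-square of 4.16 per degree of freedom, above sampling noise. Counts were also simulated gene by gene with the spread of these libraries, with 67, 67 and 66 genes changed 1.5-fold, 2-fold and 4-fold. The edgeR test recovered 26.9%, 67.2% and 97% of these. Far fewer genes were changed there than were called in the data, and shifts shared by many genes of a library were not simulated. The recovered shares may therefore differ from those in the data. The floor on counts covers counting error only. The intervals given for fold changes were built from the SE of the edgeR test, which includes the spread among the libraries. The members and gene lists were chosen with earlier results of these data known. All members were named. From each list the called genes with the smallest adjusted p, at most 3 per direction, and the 2 most abundant that did not pass were named, with RELA and NFKB1 named whatever their result. Alternatives were 3 scalings, 2 filters, DESeq2 1.42.0, limma-voom (limma 3.58.1), the replicate block, each library left out, and both replicate 3 libraries left out.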

Additional observations from a re-analysis of the deposited data

How the results depend on the processing

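ICAM1 and BCL2A1 were called in all 15 alternatives, PTGS2 in 11, CFLAR in 1 and the other 6 genes in 0. The members called higher were 2 to 3 with single libraries left out, 4 without both replicate 3 libraries, 2 with the replicate block and 3 otherwise, and 0 were lower throughout. Signs turned for BIRC2, TRAF1 and TRAF2, and the cause was not tested. The log2 fold change of BIRC2 was −0.0052 with RLE scaling, −0.0053 with DESeq2, −0.0648 with total counts, −0.0041 with no filter, −0.0013 with limma-voom, and from −0.0516 to 0.0750 with single libraries left out. With single libraries left out TRAF1 ran from −0.0081 to 0.577 and TRAF2 from −0.145 to 0.0946, and without both replicate 3 libraries they were −0.19 and 0.0974. The BIRC3 to BIRC2 difference ran from −0.0215 to 0.219 and TRAF1 to TRAF2 from −0.126 to 0.719 with single libraries left out, the latter −0.304 without both replicate 3 libraries.

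Over all genes the 1478 calls became 771 to 1696 with single libraries left out and 4129 of 15503 without both replicate 3 libraries. Total-count scaling gave 535 higher and 861 lower, against 759 and 719. The labels do not say whether the replicate numbers pair the samples. Same-numbered libraries deviated oppositely from their group means (r from −0.22 to −0.12), and none correlated best with its own number. Deviations within a group cancel by construction and these correlations are weak, so they cannot decide whether the numbers mark a shared culture or batch. The replicate block gave 750 calls, and PTGS2 had an adjusted p of 0.0513 under it. Alternatives for the related lists were added after the data were seen. Receptor and ligase genes called higher were 0 with total counts, limma-voom or the replicate block, 0 to 2 with single libraries left out and 6 without both replicate 3 libraries. Those called lower were 1 with no filter and 1 without both. Without both, subunit genes were 6 higher and 1 lower, other anti-apoptotic genes 1 higher, and pro-apoptotic genes 5 higher and 1 lower. Death receptor genes were then 7 higher, adhesion genes 3 higher and 2 lower, and prostaglandin genes 1 higher and 2 lower. With single libraries left out, pro-apoptotic genes were 1 to 4 higher, death receptor genes 1 to 3 higher, subunit genes 2 to 4 higher, adhesion genes 0 to 1 higher and prostaglandin genes 0 to 1 either way. With the replicate block, pro-apoptotic and death receptor genes were 1 higher each and adhesion genes 0. Total counts left 1 adhesion gene. With no filter, the IAP genes had 0 lower and prostaglandin genes 1 lower, as with DESeq2.

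Depth limits BCL2A1 most, at 14 to 85 counts per library. Genes that did not pass may still have changed.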
